A study of Mus musculus with 156 samples.

Results

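The 9 FGF/ERK feedback genes Dusp4, Dusp6, Spry2, Spry4, Spred1, Spred2, Etv4, Etv5 and Fgf4 were measured by RNA sequencing in pluripotent mouse embryonic stem cells, which derive from the early embryo. They were taken by gene symbol from a table of 40914 genes, and all 9 were found. The study induced the long noncoding RNA Firre with doxycycline in 4 lines, sampled in a long course (0, 720, 1440, 2880 and 5760 min, 3 libraries per line and time) and a short course (every 30 min, 0 to 330 min, 2 libraries each). The lines were a Firre knockout (KO) with a doxycycline-inducible Firre transgene (KO transgene line), a line with that transgene and the endogenous gene intact (WT transgene line), the Firre KO without transgene (KO control) and the wild type (WT control). Each control received doxycycline for the same times as its transgene line. All lines grew on gelatin in medium with serum, LIF, the GSK3 inhibitor CHIR99021 (3 µM) and the MEK inhibitor PD0325901 (1 µM), so every value below was measured under MEK inhibition and no group without the inhibitor was analysed here. The sources used here do not state whether a line is 1 clone or whether replicates were separate cultures, so p-values measure the spread between these libraries, which may be technical.

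Fibroblast growth factors bind receptor tyrosine kinases that activate RAS, the RAF kinases, MEK and finally ERK, which phosphorylates transcription factors. In mouse embryonic stem cells the main ligand is FGF4, made by the cells themselves, and the pathway drives them out of the naive state, which is why a MEK inhibitor is used to hold them there. ERK activity induces its own brakes: dual-specificity phosphatases that act on ERK, Sprouty and SPRED proteins that act upstream at the receptor and at RAS and RAF, and the ETS factors ETV4 and ETV5 as outputs. The level of these RNAs is commonly used as a reading of pathway output.

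The 250 bases before the RefSeq start (GRCm38.p6) are shown for Dusp6 and Spry2, because these 2 windows hold the octamer bound by the repressor Capicua (CIC), which ERK signalling relieves. The other 4 members with a promoter window (Spred1, Spred2, Etv5 and Fgf4) had no CIC octamer. Capitals mark motif matches.
Dusp6, chr10:99262981-99263230, plus strand: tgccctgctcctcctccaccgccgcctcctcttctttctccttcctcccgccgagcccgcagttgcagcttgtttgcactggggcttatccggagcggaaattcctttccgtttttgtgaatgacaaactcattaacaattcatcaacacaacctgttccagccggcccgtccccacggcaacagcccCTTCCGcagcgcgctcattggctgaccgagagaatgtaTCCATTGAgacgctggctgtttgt
Spry2, chr14:105896820-105897069, minus strand: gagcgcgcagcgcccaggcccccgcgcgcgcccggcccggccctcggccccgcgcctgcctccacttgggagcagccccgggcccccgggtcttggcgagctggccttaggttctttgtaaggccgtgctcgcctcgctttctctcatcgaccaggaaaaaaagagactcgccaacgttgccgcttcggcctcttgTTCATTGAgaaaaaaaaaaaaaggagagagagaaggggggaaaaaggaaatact
The CIC octamer was searched as TNAATGNA on both strands and began at -24 in Dusp6 and at -54 in Spry2, counted from the start. The Dusp6 window also held an ETS core (CGGAAG, here on the other strand) at -62, as did Spred2 at -43 and Spred1 at -17. Of 32851 promoter windows of the same length, 10.3% held the CIC octamer and 13.6% the ETS core. An AP-1 site (TGANTCA, in 6.7% of windows) and a TCF/LEF site (CTTTGAT, in 3.2%) were not found in the members' windows. A match is a run of letters in this window and not a measured binding site.

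The 9 genes spanned a wide range of RNA levels, given as TPM (transcripts scaled to a fixed total), a unit scaled by transcript length and library. Over all 156 libraries the median level was 172 TPM for Etv5 (96.2 to 203) and 147 TPM for Fgf4 (112 to 178). Spry2 followed at 55.9 TPM (33.5 to 70.4), Etv4 at 23.5 TPM (5.72 to 38.3) and Spred2 at 20.1 TPM (14.0 to 25.8). Spred1 stood at 13.2 TPM (8.20 to 17.7) and Dusp6 at 10.3 TPM (2.21 to 19.9). Dusp4 with 1.94 TPM (0.643 to 2.95) and Spry4 with 1.74 TPM (0.562 to 4.15) were the lowest. Neighbours in this order overlapped in range except Fgf4 and Spry2. These ranges pool 2 courses whose levels differed. In the WT control the median of Dusp6 was 7.96 TPM (long) and 14.1 TPM (short), and that of Fgf4 130 TPM (long) and 153 TPM (short). The SD between the 20 line-by-time means of the long course was largest for Spry4 (0.61 log2 CPM) and Etv4 (0.56 log2 CPM) and smallest for Fgf4 (0.08 log2 CPM). Divided by the median SD within groups, it was largest for Spry2 (7.25), Etv5 (7.03) and Etv4 (6.63) and smallest for Dusp4 (1.27).

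Libraries held 18961799 to 47948630 counts in the long course and 19013652 to 37195019 in the short course. Firre at 0 min of the long course averaged 0.895 ± 0.267 TPM in the KO transgene line, 0.390 ± 0.142 TPM in the KO control, 46.1 ± 0.546 TPM in the WT transgene line and 24.2 ± 0.582 TPM in the WT control (SD, n = 3), so that the WT transgene line held more Firre before doxycycline. At 720 min it averaged 49.4 ± 1.87 TPM in the KO transgene line and 113 ± 6.36 TPM in the WT transgene line, and at 120 min of the short course 465 TPM in the KO transgene line and 1162 TPM in the WT transgene line. The 6 stem cell markers (Pou5f1, Sox2, Nanog, Zfp42, Esrrb, Klf4) summed to 1951 to 2711 TPM in every library, while 5 primitive endoderm markers reached at most 4.37 TPM and 6 fibroblast markers at most 4.98 TPM. The 4 markers of formative or primed epiblast (Fgf5, Otx2, Dnmt3b, Pou3f1) summed to 44.7 to 53.1 TPM in the KO control and 53.2 to 66.2 TPM in the WT control in the short course, adjoining ranges with no overlap, and to 32.4 to 55.4 TPM in the KO control and 32.5 to 49.9 TPM in the WT control in the long course. These sums were mostly Dnmt3b, with a median of 46.1 TPM over all libraries, against 2.34 TPM for Pou3f1, 0.539 TPM for Otx2 and 0.115 TPM for Fgf5. The 5 trophoblast markers summed to 4.41 to 7.13 TPM in the KO control and 6.55 to 9.34 TPM in the WT control in the short course. Among them Eomes had the highest median over all libraries, 4.23 TPM. The part of these markers in the differences between the controls was not tested. Among the other ERK output genes listed, Egr1 and Fosl1 had the lowest median levels, 0.155 and 0.200 TPM. The rest of that list ran from 1.62 TPM for Fos to 49.5 TPM for Epha2. In bulk RNA, fewer cells expressing a gene and less RNA per cell cannot be told apart.

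The first comparison set the KO control against the WT control at 0 min, without doxycycline exposure. In the long course the Firre KO cells carried less Spry4, Etv4, Dusp6, Dusp4, Spry2 and Spred1 RNA and more Spred2 and Etv5 RNA, with Fgf4 at the same level within error. Thus 8 of 9 members passed an adjusted p of 0.05 in edgeR's quasi-likelihood test, 2 higher and 6 lower, where 35.1% of 17565 genes tested passed (16.5% higher, 18.6% lower). The median log2 fold change of the members was -0.39, and that of all genes tested was -0.01.

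Among the ERK phosphatases, Dusp6 (chr10:99263231-99267489, mm10) encodes the cytoplasmic phosphatase that acts on ERK. Its level was 4.61, 5.88 and 5.59 TPM in the KO control libraries, against 8.31, 8.65 and 7.76 TPM in the WT control libraries. The groups did not overlap, and the log2 fold change was -0.50 ± 0.08 (SE, adjusted p = 2.74e-07). Dusp4 (chr8:34807297-34819894), which encodes a nuclear phosphatase of ERK, had 0.971, 0.947 and 0.812 TPM in the KO control and 1.34, 1.35 and 1.07 TPM in the WT control. That difference, -0.42 ± 0.17, passed narrowly (adjusted p = 0.0454), and the call was lost under 6 of 10 alternatives, with adjusted p between 0.0402 and 0.179.

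The Sprouty genes encode inhibitors of receptor-to-RAS signalling. Spry4 (chr18:38586247-38601415) showed the largest difference of the 9, with 0.658, 0.562 and 0.617 TPM in the KO control against 1.28, 1.37 and 1.19 TPM in the WT control. Every KO library lay below every WT library, and the log2 fold change was -1.05 ± 0.13 (adjusted p = 3.6e-10). Spry2 (chr14:105891947-105896819) had 38.3, 34.4 and 38.1 TPM in the KO control and 49.4, 49.9 and 47.3 TPM in the WT control, a log2 fold change of -0.39 ± 0.04 (adjusted p = 1.02e-13).

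The paralogous SPRED genes, whose proteins recruit the RAS GTPase-activating protein neurofibromin, moved in opposite directions. Spred2 (chr11:19924375-20024026) was higher in the KO control, at 22.1, 22.6 and 20.4 TPM, against 16.2, 15.8 and 15.8 TPM in the WT control (log2 fold change 0.47 ± 0.04, adjusted p = 1.74e-15). Spred1 (chr2:117121374-117182279) ranged over 8.86 to 9.16 TPM in the KO control and 10.5 to 11.1 TPM in the WT control (-0.26 ± 0.05, adjusted p = 1.58e-05).

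The ETS factors of the PEA3 subfamily also split. Etv4 (chr11:101769742-101785371) had 14.3, 12.5 and 11.2 TPM in the KO control, against 19.8, 17.6 and 17.4 TPM in the WT control (-0.49 ± 0.07, adjusted p = 2.03e-09). Etv5 (chr16:22381309-22439719) had 187, 183 and 178 TPM in the KO control, above the 153, 153 and 152 TPM of the WT control (0.26 ± 0.03, adjusted p = 1.83e-13). The ligand gene Fgf4 (chr7:144847367-144865243) had 145, 146 and 142 TPM in the KO control and 151, 144 and 148 TPM in the WT control, and the difference of -0.00 ± 0.03 did not pass (adjusted p = 0.964).

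**Figure D1:**
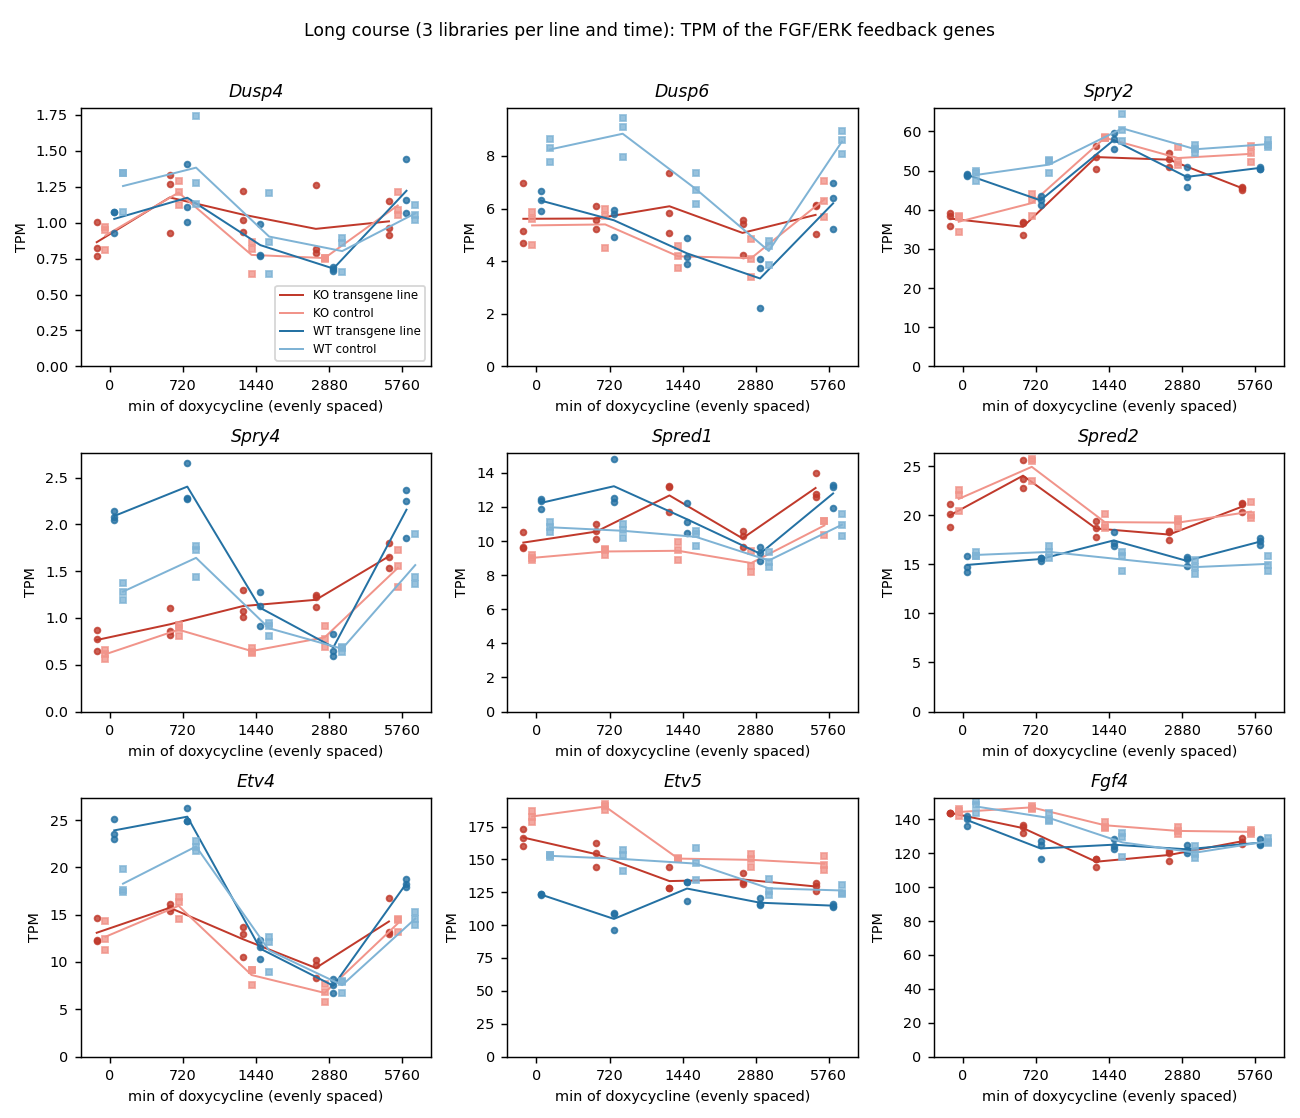
TPM of the 9 genes in the long course (vertical axis from 0) by minutes of doxycycline (horizontal axis, evenly spaced), with 1 point per library and lines through the means of 3 libraries, for the KO transgene line, KO control, WT transgene line and WT control. Etv4 was lowest at 2880 min in all 4 lines, and Spred2 was higher in both KO lines than in both WT lines at 0 and 720 min.

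Whether these differences lasted was examined at each time and over the mean of the times. In the mean of the 5 long times all 9 members passed, 3 higher (Spred2, Etv5, Fgf4) and 6 lower, where 52.2% of genes passed (23.6% higher, 28.6% lower). With 1 mean per line and replicate number (3 against 3, limma) 8 members passed, where 49% of genes did, and Dusp4 did not (adjusted p = 0.0507). Dusp6 was lower in the KO control at each of the 5 times, between -0.55 ± 0.09 at 720 min and -0.27 ± 0.09 at 2880 min, and Spred2 was higher at each, between 0.28 ± 0.05 and 0.57 ± 0.04. The Spry4 difference was -0.98 ± 0.13 at 720 min and -0.51 ± 0.15 at 1440 min, and then no longer passed, with 0.17 ± 0.15 at 2880 min and -0.07 ± 0.11 at 5760 min. Etv4 likewise passed at 0, 720 and 1440 min (-0.37 ± 0.08 at 1440 min) and not at 2880 or 5760 min.

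The short course has libraries of its own for the same controls. Levels at 0 min differed between the courses. Dusp6 had 18.6 and 17.5 TPM in the WT control of the short course, against 8.31, 8.65 and 7.76 TPM in the long course. In the KO control it had 11.2 and 10.4 TPM (short) against 4.61, 5.88 and 5.59 TPM (long). The cause of this shift was not tested. At 0 min 3 of 9 members passed there, all lower, where 7.51% of 18009 genes tested did (4.1% lower). They were Spry4 (-0.61 ± 0.16, adjusted p = 0.00839), Etv4 (-0.55 ± 0.09, adjusted p = 4.06e-05) and Dusp6 (-0.42 ± 0.09, adjusted p = 0.00104). Spry2, at -0.02 ± 0.07, and Etv5, at -0.01 ± 0.04, did not pass there, and the 2 courses were not tested against each other.

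Averaged over the 12 short times all 9 passed, 3 higher and 6 lower, where 45.7% of genes passed (23.7% higher, 22.1% lower). That test takes the 24 libraries of a line as independent, yet within a line some members kept the order of the replicate numbers over time. Spred1 was higher in replicate 1 than in replicate 2 at all 12 times in the KO control, and Fgf4 was lower in replicate 1 at all 12 times in the WT control. In the KO control Spred2 and Spry2 were also higher in replicate 1 at all 12 times, and Spry4 at 11. In the WT control Spred2, Spry2 and Spry4 were so at 6, 6 and 7 times. With 1 mean per line and replicate number (2 against 2, limma, chosen after the values were seen) 5 members passed, where 18.7% of genes did: Spry4, Etv4, Dusp6, Dusp4 and Spred2. Spry2 (adjusted p = 0.307), Spred1 (0.197), Etv5 (0.471) and Fgf4 (0.0679) did not. Spry4 ranged over 0.921 to 2.38 TPM with a median of 1.56 TPM in 24 KO control libraries, against 1.95 to 4.15 TPM with a median of 2.89 TPM in 24 WT control libraries, so the ranges overlapped only between 1.95 and 2.38 TPM. Its mean log2 fold change was -0.87 ± 0.05 (adjusted p = 7.6e-26), and -0.86 ± 0.08 from the replicate means (adjusted p = 8.36e-05). Etv4 had 18.1 to 28.3 TPM (median 23.1 TPM) in the KO control and 27.4 to 36.9 TPM (median 31.4 TPM) in the WT control, with a mean log2 fold change of -0.39 ± 0.03 (adjusted p = 9.37e-20; 0.000179 from the replicate means). Dusp6 had 8.07 to 13.3 TPM (median 10.9 TPM) in the KO control and 9.92 to 19.9 TPM (median 14.1 TPM) in the WT control (-0.38 ± 0.03, adjusted p = 1.05e-19; 0.000372 from the replicate means). The other members differed by less: Spred2 by 0.16 ± 0.02, Fgf4 by 0.10 ± 0.01, Etv5 by 0.04 ± 0.01, Spry2 by -0.07 ± 0.02, Spred1 by -0.13 ± 0.03 (0.01 without replicate 2) and Dusp4 by -0.19 ± 0.05.

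**Figure D2:**
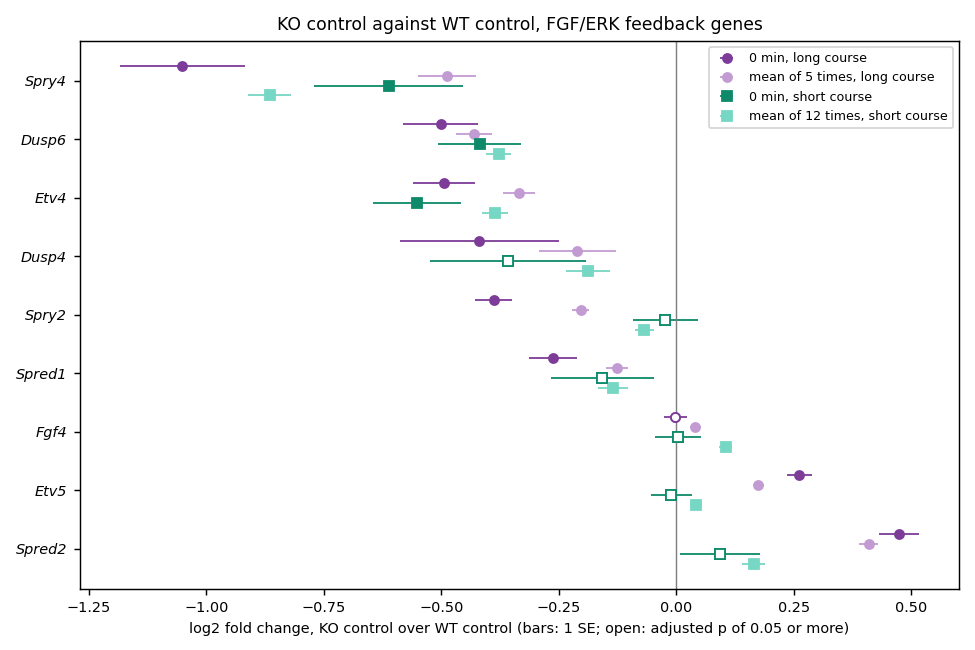
Log2 fold change of the KO control over the WT control (horizontal axis) for each member (vertical axis), at 0 min and averaged over times in both courses, with bars of 1 SE, taking libraries as independent, and open symbols where the adjusted p was 0.05 or more. Spry4, Dusp6 and Etv4 lay left of 0 in all 4 estimates, from -1.05 to -0.33, and Spred2 lay right of 0 in all 4.

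Over the long course the controls themselves changed. In the KO control all 9 members changed from 0 min, 5 higher and 4 lower at their time of largest change, where 59.6% of genes changed (29.8% in each direction). In the WT control 8 changed, 2 higher and 6 lower, where 54.8% did (28.7% higher, 26.1% lower), and 5 did without replicate 3. At the time of largest change, Spry4, Spry2, Dusp6, Dusp4 and Spred1 were higher and Etv4, Etv5, Spred2 and Fgf4 lower in the KO control. In the WT control Spry2 and Spred1 were higher, Etv4, Spry4, Dusp4, Dusp6, Etv5 and Fgf4 lower, and Spred2, at 0.06 ± 0.05, did not pass. The Spred1 call in the WT control was lost without replicate 2 or 3 (adjusted p up to 0.192). Doxycycline, time in culture and age of the medium run together in these lines and cannot be told apart.

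Etv4 fell most in both controls. In the KO control it had 7.69, 5.72 and 6.77 TPM at 2880 min and returned to 14.4, 14.6 and 13.2 TPM at 5760 min; the WT control had 8.02, 7.89 and 6.74 TPM at 2880 min and 15.3, 13.9 and 14.5 TPM at 5760 min. The change at 2880 min relative to 0 min was -1.04 ± 0.08 in the KO control (adjusted p over the course 1.38e-25) and -1.31 ± 0.08 in the WT control (adjusted p = 3.75e-28). Most of the fall lay between 720 and 1440 min, where Etv4 fell by 0.78 in the KO control and by 0.88 in the WT control on the log2 scale. Over that interval 5 members changed in the KO control (38.5% of genes did) and 7 in the WT control (30.5% of genes did; 4 members without replicate 1 or 2, 3 without replicate 3). In the KO control these were Spry2, higher, and Etv4, Dusp4, Spred2 and Etv5, lower. In the WT control they were Spry2 and Etv5, higher, and Etv4, Spry4, Dusp4, Dusp6 and Fgf4, lower. Spry2 rose in both, by 0.56 in the KO control and 0.30 in the WT control.

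Spry2 ran against Etv4, with 58.2, 58.3 and 58.6 TPM in the KO control and 64.4, 60.3 and 57.6 TPM in the WT control at 1440 min. Its change from 0 min was 0.72 ± 0.04 in the KO control and 0.42 ± 0.04 in the WT control. Spry4 took different courses in the 2 controls. In the KO control it reached 1.55, 1.72 and 1.33 TPM at 5760 min, a change of 1.39 ± 0.13, whereas in the WT control it fell to 0.641, 0.689 and 0.682 TPM at 2880 min, a change of -0.80 ± 0.14.

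The difference between the changes was tested directly over all times of the course, and the values below are those of largest size. It passed for 6 members, 4 higher and 2 lower in the KO control relative to the WT control, where 18.8% of genes passed (9.92% higher, 8.93% lower). Spry4 differed by 1.22 ± 0.20 at 2880 min (adjusted p = 1.1e-07), Etv4 by 0.39 ± 0.10 at 5760 min (adjusted p = 0.00474; lost without replicate 2 and with length-scaled TPM, up to 0.238) and Spry2 by 0.31 ± 0.05 at 1440 min (adjusted p = 4.09e-07). Spred1 differed by 0.21 ± 0.07 at 5760 min, a call lost under 8 of 11 alternatives. Etv5 differed by -0.28 ± 0.04 at 1440 min (adjusted p = 6.75e-10) and Spred2 by -0.19 ± 0.06, lost without replicate 1 (adjusted p = 0.0512). These changes share the 0 min libraries with the comparison at 0 min.

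Transgene lines were compared with their controls before induction. In the KO background only Etv5 differed among the members at 0 min of the long course, where 3.54% of genes did. It had 173, 166 and 161 TPM in the KO transgene line and 187, 183 and 178 TPM in the KO control (-0.13 ± 0.03, adjusted p = 0.00102), a call lost without replicate 2. In the WT background 4 members differed, 3 higher and 1 lower, where 13.2% of genes did (7.22% higher, 5.94% lower). Spry4 had 2.05, 2.08 and 2.15 TPM in the WT transgene line, against 1.28, 1.37 and 1.19 TPM in the WT control (0.71 ± 0.11, adjusted p = 1.6e-06). Etv4 was higher by 0.38 ± 0.06 and Spred1 by 0.21 ± 0.05, and Etv5 was lower by 0.30, with 123, 124 and 123 TPM in the WT transgene line and 153, 153 and 152 TPM in the WT control. When the short course began, no member passed in either background by edgeR or DESeq2 (0.161% of genes passed in the KO and 2.93% in the WT background by edgeR). By unadjusted p under 0.05, 1 member did in each (share of all genes not given here), and in the WT background this was Spry4 at 0.42 ± 0.14 (adjusted p = 0.0888). Without replicate 1, 3 members passed in the WT background.

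Firre induction is called rescue in the KO background and overexpression in the WT one. Each response was the change of the transgene line since 0 min less that of its control. In the long course the rescue response passed for 6 members, 3 higher (Etv4, Dusp6, Spry4) and 3 lower (Spry2, Fgf4, Etv5), where 11.5% of genes passed (5.56% higher, 5.97% lower). The overexpression response passed for 5 members, 2 higher (Spred2, Etv5) and 3 lower (Spry2, Etv4, Fgf4), where 9.79% did (4.16% higher, 5.63% lower). Without replicate 2 these counts were 2 (rescue) and 1 (overexpression), and without replicate 3 they were 3 (rescue) and 2 (overexpression).

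Etv4 gave the largest rescue response. At 1440 min it had 13.7, 13.0 and 10.6 TPM in the KO transgene line, against 9.14, 7.59 and 9.13 TPM in the KO control. At 2880 min it had 9.63, 8.32 and 10.2 TPM in the KO transgene line and 7.69, 5.72 and 6.77 TPM in the KO control. Every transgene library lay above every control library at these times, whereas at 720 min the 15.4 to 16.2 TPM of the KO transgene line fell within the 14.5 to 16.9 TPM of the KO control. The response was 0.59 ± 0.10 at 1440 min and 0.50 ± 0.11 at 2880 min (adjusted p over the course 5.59e-07), and it passed in all 11 alternatives. The fall of Etv4 over this interval was thus smaller in the KO transgene line, and by 5760 min the response was 0.06 ± 0.10.

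In the WT background the Etv4 response had the other sign, -0.36 ± 0.11 at 2880 min (adjusted p over the course 0.016). At that time the lines overlapped, with 6.68, 8.18 and 7.58 TPM in the WT transgene line and 8.02, 7.89 and 6.74 TPM in the WT control, while at 0 min the transgene line had 23.6, 23.0 and 25.1 TPM against 19.8, 17.6 and 17.4 TPM in the WT control. The overexpression call was lost without each replicate in turn (adjusted p up to 0.246). The rescue response minus the overexpression response of Etv4 was 0.92 ± 0.14 at 1440 min (adjusted p = 5.95e-08).

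The same pattern of signs held for Dusp6 and Spry4, with weaker tests. Dusp6 had 5.84, 7.35 and 5.07 TPM in the KO transgene line at 1440 min, against 4.20, 3.76 and 4.59 TPM in the KO control, a response of 0.35 ± 0.12 (adjusted p over the course 0.00123). Without replicate 2 or 3 that call was lost, with an adjusted p of up to 0.234, and without replicate 2 the response of largest size was -0.31. At 1440 min Spry4 had 1.30, 1.01 and 1.08 TPM in the KO transgene line and 0.674, 0.641 and 0.624 TPM in the KO control. Its response was 0.53 ± 0.20 (adjusted p over the course 0.0106), a call lost without any 1 of the 3 replicates (adjusted p up to 0.189). At 1440 min alone 1 member passed as higher in the rescue, Etv4, so neither Dusp6 nor Spry4 passed at that time. In the WT background the values were -0.30 ± 0.12 for Dusp6 and -0.42 ± 0.18 for Spry4 at 1440 min, and neither response passed over the course. Spry4 was not below its control then, with 1.12, 0.92 and 1.28 TPM in the WT transgene line and 0.81, 0.92 and 0.94 TPM in the WT control. At 0 min it had 2.05, 2.08 and 2.15 TPM against 1.28, 1.37 and 1.19 TPM. Dusp6 had 4.86, 4.14 and 3.89 TPM in the WT transgene line at 1440 min, against 7.36, 6.17 and 6.70 TPM in the WT control. The difference between responses passed for 4 members, where 5.32% of genes did: Etv4, Spry4 (0.96 ± 0.27 at 1440 min, adjusted p = 0.00392), Dusp6 (0.65 ± 0.17, adjusted p = 0.0137) and Fgf4 (-0.24 ± 0.05 at 2880 min, adjusted p = 8.53e-06). That of Dusp6 was lost without each replicate and that of Spry4 without replicate 2, when 2 members passed.

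The Spry2 response passed at negative values in both backgrounds at 720 and 5760 min. At 720 min it had 37.0, 33.5 and 36.5 TPM in the KO transgene line against 42.6, 44.1 and 38.5 TPM in the KO control, and 43.6, 41.2 and 42.4 TPM in the WT transgene line against 52.4, 52.8 and 49.5 TPM in the WT control. No transgene library reached its control's range. The responses at 720 min were -0.26 ± 0.06 in both backgrounds (adjusted p = 0.00632 in the KO and 0.00402 in the WT background), and their difference was 0.00 ± 0.08. At 5760 min they were -0.30 ± 0.06 for the rescue and -0.22 ± 0.05 for overexpression. Between these times the rescue response did not pass, at -0.14 ± 0.06 at 1440 min and -0.06 ± 0.06 at 2880 min, when the KO transgene line had 54.6, 51.0 and 52.8 TPM and the KO control 56.0, 52.2 and 51.4 TPM. Overexpression gave -0.09 ± 0.05 at 1440 min, which did not pass, and -0.19 ± 0.05 at 2880 min (adjusted p = 0.0408). Over the course the rescue call was lost without replicate 2 (adjusted p = 0.0525) and the overexpression call without replicate 2 or 3 (adjusted p up to 0.101).

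The ligand gene Fgf4 fell in the rescue. At 1440 min it had 117, 112 and 116 TPM in the KO transgene line and 139, 135 and 136 TPM in the KO control, a response of -0.20 ± 0.04 (adjusted p over the course 5.95e-06) that passed in all 11 alternatives. In the WT background its response passed over the course with its largest size at 720 min, -0.11 ± 0.04, and was 0.03 ± 0.04 at 1440 min. Spred2 responded in the WT background, by 0.28 ± 0.07 at 1440 min (adjusted p over the course 0.00537). It had 18.4, 17.2 and 16.8 TPM in the WT transgene line and 16.3, 15.9 and 14.3 TPM in the WT control then. The call was lost without replicate 2 or 3 and with length-scaled TPM (adjusted p up to 0.0642). Etv5 responses were at most 0.13 in size. The rescue call of Etv5 was kept under only 6 of 11 alternatives and was lost without each replicate in turn (adjusted p up to 0.221). The sign of the overexpression responses of Etv5 and Fgf4 at their largest time turned under 3 and 2 alternatives. Dusp4 and Spred1 did not pass in either background. The Dusp4 response reached 0.55 ± 0.26 in the rescue at 1440 min, which did not exceed the spread between replicates after adjustment (adjusted p = 0.222).

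**Figure D3:**
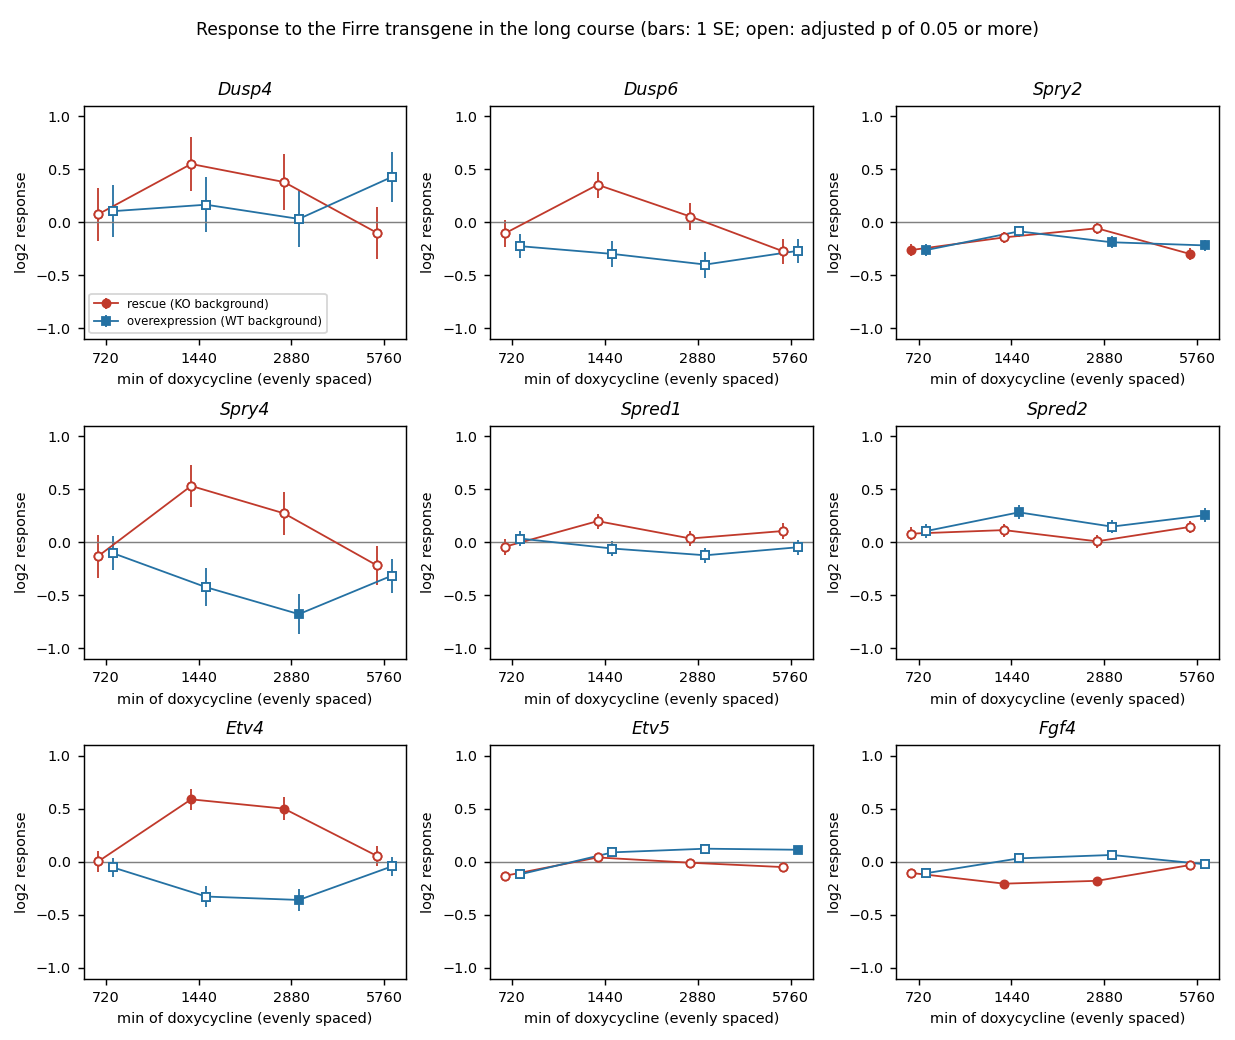
Response to the Firre transgene (log2, vertical axis) of each member at 4 times of doxycycline (horizontal axis, evenly spaced), in the KO (rescue, red circles) and WT background (overexpression, blue squares), with bars of 1 SE and open symbols where the adjusted p at that time was 0.05 or more. Etv4 stood at 0.59 in the rescue and -0.33 in overexpression at 1440 min, and Spry2 at -0.26 in both at 720 min.

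In the short course no member passed the rescue response (1.82% of genes did), the overexpression response (0.7%) or their difference (0.0167%) in edgeR's test. By unadjusted p under 0.05, 4, 3 and 1 members did, and DESeq2 called 1, 1 and 0. The shares of all genes by these 2 measures are not given here, so these counts have no background beside them. With a block for each line's replicate numbers, chosen after the values were seen, Etv5 passed in both responses (adjusted p = 0.0161 in the rescue and 0.0132 in overexpression). Etv5 came closest, with mean responses of -0.10 ± 0.05 in the KO background (adjusted p = 0.0853) and -0.09 ± 0.05 in the WT background (adjusted p = 0.108). Fgf4 had -0.12 ± 0.05 for the rescue and -0.10 ± 0.05 for overexpression. Compared with the KO control at single times, Etv5 was lower in the KO transgene line at 6 of 12 times, by as much as -0.28 ± 0.04 at 270 min. In simulated counts with 200 genes changed by 2-fold from 30 min on, the spline test of the short rescue recovered 37. A count of 0 there thus has limited reach for a change of that shape. With a linear rise to 2-fold at the last time, the spline test of the short overexpression recovered 157 of 200. Every simulated gene had the same dispersion (spread between replicates), so the reach for these members was not measured.

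Within the short course the mean Dusp6 level dropped between 150 and 180 min in all 4 lines. It had 12.2 and 13.0 TPM at 150 min and 9.58 and 10.9 TPM at 180 min in the KO transgene line, and 13.3 and 12.9 TPM at 150 min and 11.8 and 10.8 TPM at 180 min in the KO control. It had 14.8 and 17.6 TPM at 150 min and 10.96 and 10.4 TPM at 180 min in the WT transgene line, and 13.9 and 18.4 TPM at 150 min and 10.4 and 14.4 TPM at 180 min in the WT control. In every line but the WT control both libraries of 180 min lay below both of 150 min. This interval was chosen after the values were seen. The log2 change over it in counts was -0.20 ± 0.09 in the KO transgene line (adjusted p = 0.261), -0.40 ± 0.09 in the KO control (adjusted p = 0.0465), -0.46 ± 0.09 in the WT transgene line (adjusted p = 0.000696) and -0.43 ± 0.09 in the WT control (adjusted p = 0.00244). In each line 1 of the 9 members passed, which was Dusp6 except in the KO transgene line, where it was Spry4 with -0.83 ± 0.16 (adjusted p = 0.00315). With counts rebuilt from length-scaled TPM the Dusp6 step passed in the WT transgene line (-0.65, adjusted p = 0.0201) and not in the KO transgene line (-0.26), the KO control (-0.19) or the WT control (-0.39), and Spry4 no longer passed (adjusted p = 0.0564). Of all genes 2.15% passed in the KO transgene line, 0.189% in the KO control, 3.04% in the WT transgene line and 2.53% in the WT control.

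Over the whole short course 7 members changed with time in the KO control, 4 higher and 3 lower (13.3% of genes did, 6.96% higher and 6.31% lower), and 6 in the WT control, 1 higher and 5 lower (21.8% did, 12% higher and 9.8% lower). Direction here is that of the mean after 0 min, while the spline test was of any change with time. Without replicate 1, 4 members changed in the KO control. Those that passed in both controls were Dusp6, Spry2, Spred1, Etv4 and Etv5, with Dusp4 and Spry4 in the KO control and Fgf4 in the WT control. Dusp6 averaged -0.21 ± 0.07 in the KO control and -0.25 ± 0.06 in the WT control after 0 min. With 0 to 150 min alone, a restriction chosen after the values were seen, Dusp6 stood at 0.01 in the KO control and 0.02 in the WT control and did not pass. The count was then 2 in the KO control and 0 in the WT control by edgeR (1 at an unadjusted p under 0.05 in the WT control), and with 1 coefficient per time 3 members passed in the WT control. The change in the KO control minus that in the WT control passed the spline test for Spry4 (adjusted p = 0.013) and Fgf4 (adjusted p = 0.00811), where 4.93% of genes passed. Its mean after 0 min, which that test did not measure, was -0.28 ± 0.17 for Spry4 and 0.11 ± 0.05 for Fgf4. Without replicate 2 the Spry4 value was 0.13. Culture days and sequencing lanes are not named in the labels.

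**Figure D4:**
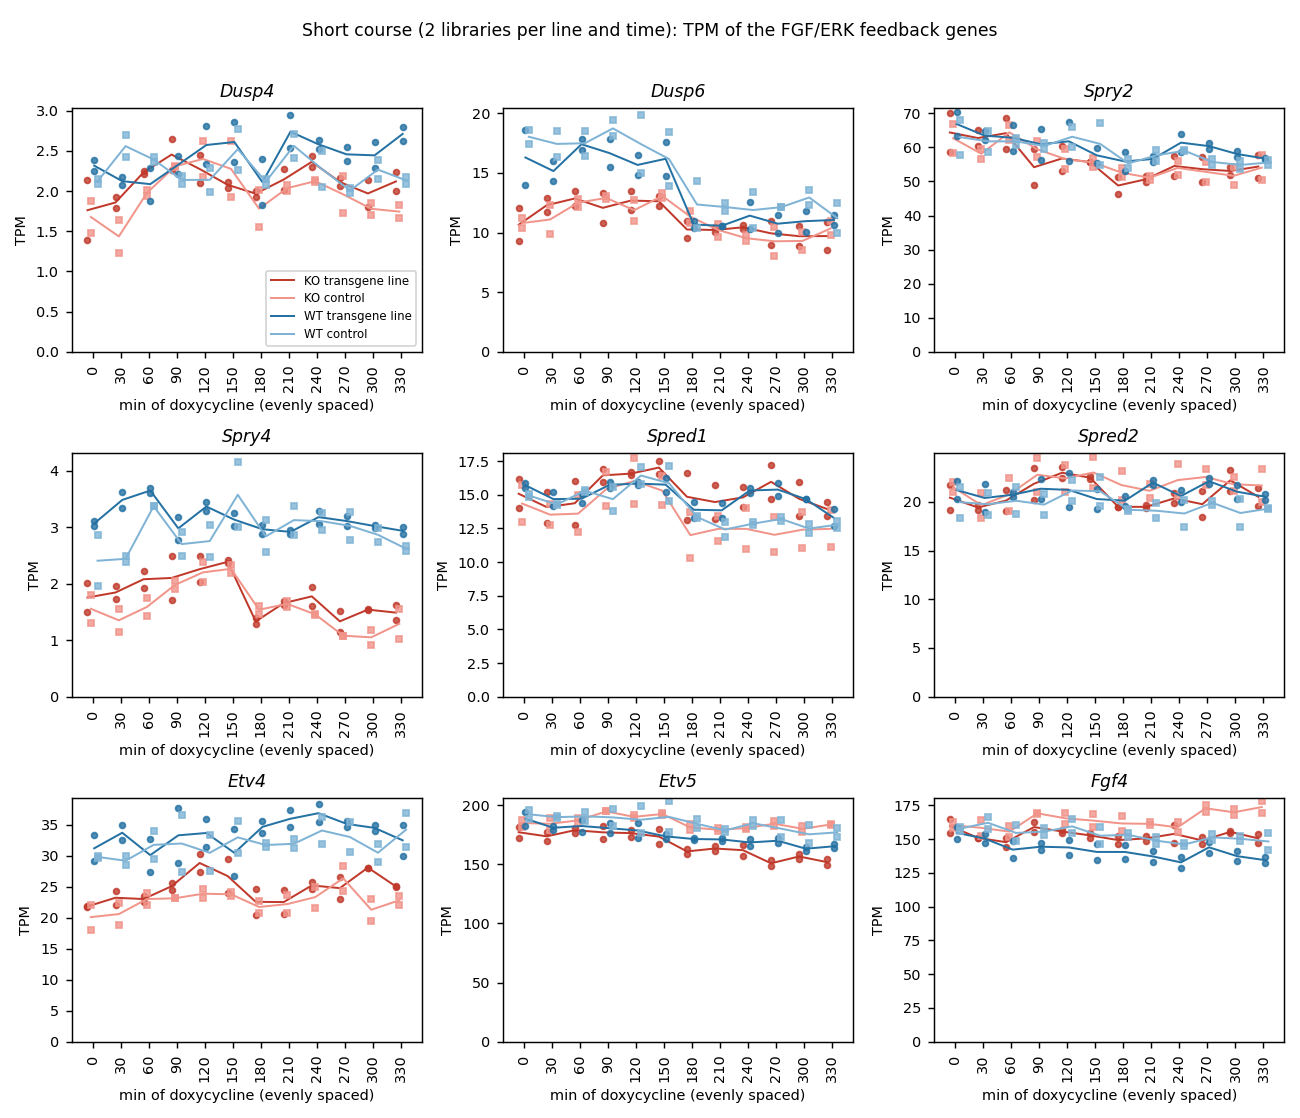
TPM of the 9 genes in the short course (vertical axis from 0) by minutes of doxycycline (horizontal axis), with 1 point per library and lines through the means of 2 libraries, for the KO transgene line, KO control, WT transgene line and WT control. Dusp6 is lower at 180 min than at 150 min in all 4 lines by its means, and Spry4 and Etv4 lie lower in both KO lines than in both WT lines at most times.

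Other genes of the pathway were read from a list of 61, of which 57 were tested in the long and 60 in the short course. In the long course 7 were higher and 15 lower at 0 min in the KO control than in the WT control, which is 38.6% against the 35.1% of all genes, with a median log2 fold change of -0.01, that of all genes. The other ETS and CIC factors had 4 of 8 lower and 0 higher: Etv1, the third PEA3 factor, stood at -0.76 ± 0.06 (adjusted p = 3.61e-20), Ets2 at -0.40 ± 0.05 and Elk3 at -0.55 ± 0.14. Of 10 other ERK output genes 4 were lower and 2 higher, among them the ephrin receptor genes Epha4 (-0.60 ± 0.06) and Epha2 (-0.34 ± 0.05) and the cyclin gene Ccnd1 (0.30 ± 0.04).

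The core of the cascade moved little. Of 11 genes for RAS, RAF, MEK, ERK and the scaffold KSR1, 1 passed, Ksr1 at 0.36 ± 0.06. Among adaptors Grb2 was higher by 0.39 ± 0.04 and Shc1 stood at -0.17 ± 0.03. Fgfr1, the main FGF receptor gene of these cells, stood at -0.20 ± 0.04 and the ligand gene Fgf1 at -1.13 ± 0.21. Of the other inhibitors 1 was higher, Nf1 (0.24 ± 0.05), which encodes neurofibromin, and 3 were lower, among them the phosphatase gene Dusp1 (-0.29 ± 0.05).

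Averaged over the 12 short times, 10 of 60 pathway genes were higher and 23 lower in the KO control, 55.0% against the 45.7% of all genes with libraries taken as independent. Dusp1 stood at -0.43 ± 0.02, Epha4 at -0.31 ± 0.02, Etv1 at -0.13 ± 0.02 and Fgfr1 at -0.16 ± 0.02. Ccnd1, higher at 0 min of the long course, stood at -0.19 ± 0.01 there.

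The rescue response passed for 11 of 57 pathway genes, 4 higher and 7 lower (19.3%, against 11.5% of all genes). Higher were the receptor genes Fgfr2 (1.28 ± 0.22) and Fgfr1 (0.27 ± 0.05), Nf1 and the ERK phosphatase gene Dusp9 (0.39 ± 0.06). The median level of Fgfr2 over all libraries was low, at 1.37 TPM. Lower were Fgf17 (-0.79 ± 0.12), Myc (-0.46 ± 0.11) and Mapk3, which encodes ERK1 (-0.30 ± 0.07), among others. In overexpression 10 passed, 5 higher and 5 lower (17.5%, against 9.79%), with Fgf17 at -0.73 ± 0.12, Myc at -0.67 ± 0.12, Etv1 at -0.52 ± 0.08 and Dusp9 at 0.23 ± 0.06. The difference between the responses passed for 10 (17.5%, against 5.32%), among them Etv1 (0.58 ± 0.11) and Ccnd1 (0.54 ± 0.07). For both, the rescue response lay above the overexpression response, and neither was among the 4 genes called higher in the rescue.

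The members did not vary as 1 block. Over the 20 group means of the long course, with each line centred on its own mean, Dusp4, Dusp6, Spry4 and Etv4 had pairwise Pearson r between 0.71 and 0.86. Spry2 had r of -0.61 with Etv4, and Spred1 had r of -0.82 with Etv5 and -0.76 with Fgf4. Over the 48 group means of the short course, with the same centring, the grouping was another one: Dusp6 had r of 0.85 with Etv5, 0.78 with Spred1 and 0.77 with Spry2, and -0.48 with Etv4. This depended on the centring. Without it, r among Dusp4, Dusp6, Spry4 and Etv4 in the short course ran from 0.35 (Dusp4 with Dusp6) to 0.82 (Spry4 with Etv4). It was then 0.38 for Dusp6 with Etv4. These values are descriptions; the points share libraries and the course of time, and genes in them share library depth.

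**Figure D5:**
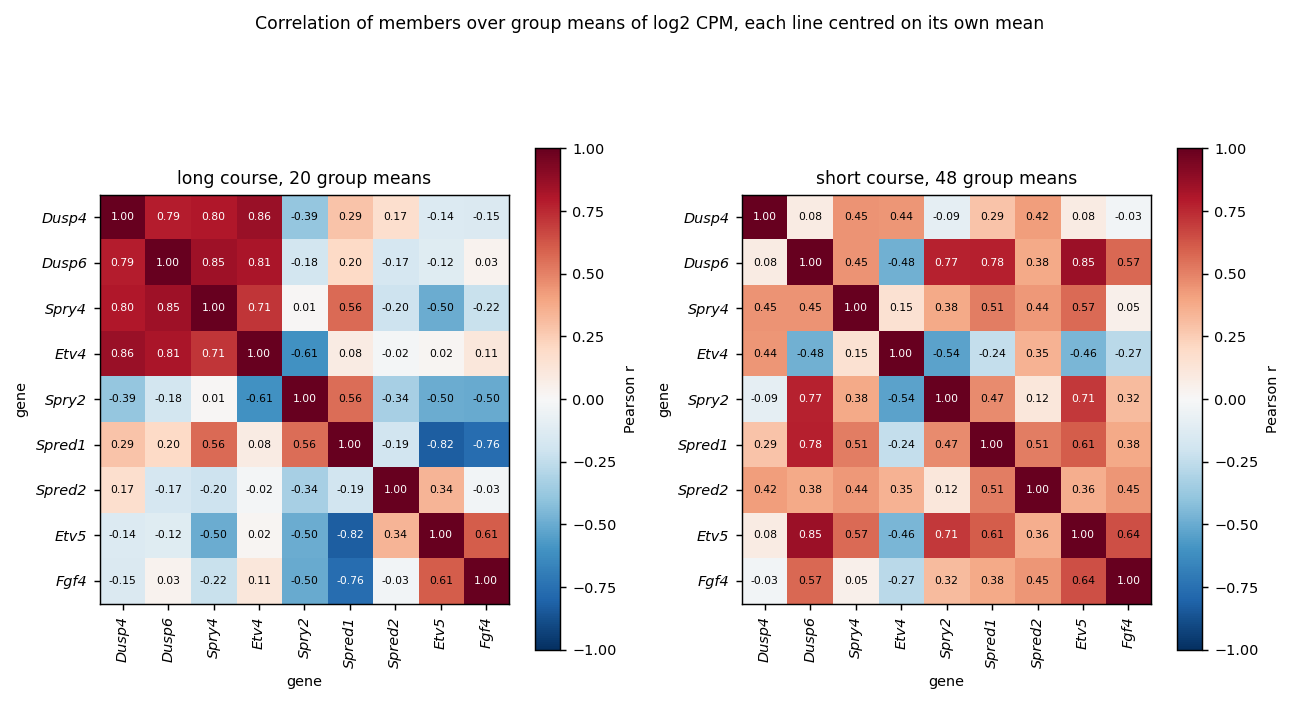
Pearson r between members over group means of log2 CPM with each line centred on its own mean, for the long course (left, 20 means) and the short course (right, 48 means), from -1 (blue) to 1 (red). The block of Dusp4, Dusp6, Spry4 and Etv4 in the long course (0.71 to 0.86) is not there in the short course, where Dusp6 and Etv4 had r of -0.48.

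The genes whose long-course profile was most like the mean profile of the 9 members, without centring and with the members left out, were Gadd45a (r = 0.94), Dnmt3l (0.93), Ipo13 (0.91), Adam23 (0.89) and Zfp423 (0.88), over 20 group means. Over the 48 group means of the short course their r was 0.52, 0.66, 0.39, 0.42 and 0.69 in that order. Each member's own r with the mean of the other members in the long course ran from -0.44 for Etv5 to 0.86 for Dusp4.

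The deposited counts and TPM did not always move alike, as TPM is scaled by an effective length, which differed between libraries. For Spred1 the change in the KO control at 720 min was 0.25 ± 0.05 by counts, while the TPM were 9.45, 9.54 and 9.18 at 720 min and 8.86 to 9.16 at 0 min. Dusp6 in the KO control at 5760 min rose by 0.41 ± 0.08 by counts, and its TPM were 7.06, 6.29 and 5.69 at 5760 min and 4.61, 5.88 and 5.59 at 0 min. With counts rebuilt from TPM its change of largest size was -0.34, at another time.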

How the data were processed

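RNA-seq libraries (156, in 68 groups of line, course and time) were analysed from the gene tables the authors deposited: estimated counts, 76.0% of them whole numbers, and TPM. Per the submitters' processing notes Salmon 1.5.2 and the mm10 build were used; how transcripts were summed to genes is not given in the sources used here. TPM, deposited by the authors, summed to 924452 to 947484 per library. Per the labels' protocols the library kit was TruSeq v2, which does not mark strand.

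Estimated counts were rounded and tested with edgeR 4.0.16 (R 4.3.3) by the quasi-likelihood F test, after TMM scaling and filterByExpr, separately by course; p-values were adjusted by the Benjamini-Hochberg method over every gene tested. All 9 members passed the filter. Each line and time of the long course was its own coefficient. In the short course tests over time used a natural cubic spline with 3 degrees of freedom per line, and other contrasts 1 coefficient per line and time. Fold changes over a course are those at the time of largest size (long) or the mean after 0 min (short), and SE is the absolute log2 fold change divided by the square root of F. Beside them stands the adjusted p of the test over all times, not of that time or mean. Spry2 responses at single times carry the adjusted p of that time. The tests were tested on simulated data. TPM are given as levels only. Alternatives were DESeq2 1.42.0, RLE scaling, no filter, other sets of libraries, a replicate block and leaving out replicates; counts rebuilt from length-scaled TPM, 0 to 150 min alone, the step from 150 to 180 min, a block of each line's replicate series and limma 3.58.1 on 1 mean per series were added after the data were seen. The members, gene lists and tests were chosen with earlier results of these data known. The rule for naming took all 9 members in each comparison; other pathway genes are named by role, at most 3 of those that passed, by smallest adjusted p. Promoter windows came from RefSeq, where 6 of 9 members matched; gene positions came from the annotation of the mm10 build.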

Additional observations from a re-analysis of the deposited data

Results flagged for a closer look

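These results were flagged because the effects of 2 groups under the same contrast differed in edgeR's quasi-likelihood test of the difference itself. That test covers all times of a course, and values in the long course are those at the time of largest size. The change from 0 min in the KO control minus that in the WT control in the long course was 0.31 ± 0.05 for Spry2 at 1440 min (adjusted p = 4.09e-07) and 1.22 ± 0.20 for Spry4 at 2880 min (adjusted p = 1.1e-07). It was 0.21 ± 0.07 for Spred1 (adjusted p = 0.0433) and 0.39 ± 0.10 for Etv4 (adjusted p = 0.00474), both at 5760 min. At 1440 min it was -0.19 ± 0.06 for Spred2 (adjusted p = 0.00179) and -0.28 ± 0.04 for Etv5 (adjusted p = 6.75e-10). In the short course the same difference passed the spline test over time for Spry4 (adjusted p = 0.013) and Fgf4 (adjusted p = 0.00811). Its mean after 0 min, which that test did not measure, was -0.28 ± 0.17 for Spry4 and 0.11 ± 0.05 for Fgf4.

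The response in the KO background minus the response in the WT background was 0.65 ± 0.17 for Dusp6 (adjusted p = 0.0137), 0.96 ± 0.27 for Spry4 (adjusted p = 0.00392) and 0.92 ± 0.14 for Etv4 (adjusted p = 5.95e-08) at 1440 min, and -0.24 ± 0.05 for Fgf4 at 2880 min (adjusted p = 8.53e-06).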

How the results depend on the processing

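Over 103 results in which a member passed, 1074 values under alternatives were computed: 915 kept direction and call, 136 lost the call and 23 turned direction. The cause was not tested, except that leaving out replicates leaves fewer libraries. For short times that leaves 1 library per group, assumed to vary like the others, with contrasts taken from the spline. The value of a course is that at its largest time, so its sign can turn where another time becomes largest.

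Counts of members that passed moved as follows. With no filter on low counts the step from 720 to 1440 min in the WT control had 4, the short KO minus WT change 1, the short rescue 1, the short overexpression 1 and the WT transgene line at 0 min of the short course 1. With only the lines compared the step had 4, that 0 min comparison 1 and the short overexpression 1. DESeq2 called 1 in the short rescue and 1 in the short overexpression. Without the single WT control library (1440 min, number 3) the step had 4. Counts rebuilt from length-scaled TPM gave 2 for the long overexpression, 3 for the step and 1 for the short rescue. With 1 coefficient per time the short KO minus WT change had 1 and the short change in the WT control 3. With 0 to 150 min alone the short change in the KO control had 2, that in the WT control 0 and their difference 0 in edgeR's test (by unadjusted p under 0.05, 1 in the WT control and 2 in the difference; DESeq2 was not run on these times).

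Leaving out 1 replicate, counts ranged over 0 to 1 for the KO transgene line at 0 min (long), 2 to 4 for the long rescue, 1 to 4 for the long overexpression, 2 to 4 for their difference, 5 to 7 for the long change in the WT control and 3 to 4 for its step. In the short course they ranged over 4 to 5 for KO against WT at 0 min, 1 to 3 for the KO minus WT change, 0 to 1 for the rescue, 0 to 1 for the overexpression, 0 to 3 for the WT transgene line at 0 min and 4 to 7 for the change in the KO control.

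Directions turned for small changes and for courses with both rises and falls. Etv5 in overexpression was -0.124 by DESeq2 and -0.173 by length-scaled TPM, and -0.170 to 0.152 leaving out replicates. Dusp6 in the KO control was -0.342 (long) and 0.035 (short) by length-scaled TPM. With 0 to 150 min alone Dusp6 was 0.007 in the KO control and 0.022 in the WT control, and Spred1 0.037 in the KO control and 0.032 in the WT control. Etv5 in the short KO control was -0.005 with no filter and -0.000 with only the lines compared. Leaving out replicates, values in the long course ranged over -0.341 to 0.440 (Dusp4, KO control change), -0.310 to 0.490 (Dusp6, rescue) and -0.166 to 0.103 (Fgf4, overexpression). In the short course they ranged over -0.017 to 0.044 (Etv5) and 0.003 to 0.029 (Spred1) in the KO control, -0.032 to 0.169 (Etv4), -0.093 to 0.002 (Etv5) and -0.204 to 0.037 (Spry2) in the WT control, -0.122 to 0.128 (Spry4, KO minus WT change) and -0.285 to 0.010 (Spred1, KO against WT mean).

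Replicate numbers did not pair libraries between lines: the correlation of deviations passed 0.1 in 0 of 15 pairs (long) and 0 of 24 pairs (short) for each of 3 pairs of lines. Within a line over time, libraries of 1 number had median r of 0.04 in the short KO control, with 6 of 132 pairs above 0.1, and 16 of 132 in the KO transgene line. With 1 mean per line and number 5 members passed in the short KO against WT mean. With a block for each line's numbers the short rescue had 1 and the short overexpression 1. With the replicate block 6 members passed in the long overexpression, 5 in the difference between responses and 3 in the step from 150 to 180 min in the KO transgene line, and the other counts equalled those without it. Low counts limit Spry4 and Dusp4, the 2 members with the lowest levels.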
